A study of Mus musculus with 8 samples.

Results

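The genes described here are 10 that encode parts of the growth kinase complex mTORC1 or proteins that hold it back: Mtor, Rptor, Rheb, Akt1s1, Tsc1, Tsc2, Ddit4, Sesn1, Sesn2 and Sesn3. They were chosen by name, as the rows of the deposited expression table that carry these symbols, and all 10 were found among its 23234 genes. All 10 also passed the filter on low values, which kept 10610 genes.

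mTORC1 is a protein kinase complex built on the kinase mTOR and the scaffold raptor. On the lysosome it is switched on by the small GTPase RHEB when amino acids and growth signals are present, and it then drives protein, lipid and nucleotide synthesis. The TSC1 and TSC2 proteins form the complex that keeps RHEB inactive, and DDIT4 (also called REDD1) acts through that complex under stress. Some of the sestrins report low leucine to the lysosomal amino acid sensors. In germinal centres, the sites where B cells mutate and select their antigen receptors, mTORC1 activity is known to follow T cell help in the light zone (LZ) and to support the growth that precedes division in the dark zone (DZ).

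RNA was sequenced from donor germinal centre B cells of mouse spleen in 4 groups of 2 libraries. The donor genotypes were Bach2(+/+) Prdm1(f/f) and Bach2(f/f) Prdm1(f/f), both with ERT2cre(KI/+) and B1-8hi(KI/+) on C57BL/6. B1-8hi is an antigen receptor that binds the hapten NP, and ERT2cre is a recombinase that tamoxifen activates. Naive cells of either genotype were put into wild-type recipients, tamoxifen (3 mg for 3 days) was given, and on day 10 after NP-CGG in alum donor germinal centre cells were sorted from the pooled spleen cells of 5 recipients. LZ cells were taken as those with much CD86 and little CXCR4 on the surface, and DZ cells as the converse. The group with floxed Prdm1 alone is called sKO here and the group with floxed Bach2 and Prdm1 is called dKO. Every group carried the floxed Prdm1 alleles, so no cells with Prdm1 intact by design were compared. The labels do not say whether the replicates came from separate pools, so every p-value here reflects library-to-library spread alone, which may be technical.

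Levels are taken to be FPKM because the processing notes name Cufflinks. FPKM are fragment counts scaled to transcript length and to the mapped fragments of the library, so levels of different genes can be compared roughly. Differences are on the log2(FPKM + 1) scale with a standard error; on this scale the changes of weakly expressed genes look smaller than they are. A gene is said to rise or fall where its adjusted p was under 0.05 (limma, Benjamini-Hochberg over all 10610 genes). Depth in reads is unknown from FPKM. In bulk RNA, fewer cells that express a gene and less RNA of it per cell cannot be told apart.

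The libraries matched their zone labels for the sort: Cd86 was at 77.4 to 106 FPKM in the LZ and 31.2 to 38.4 in the DZ libraries, Cxcr4 at 73.5 to 78.3 and 129 to 139. The 4 genes listed as sort markers (Cd86, Cxcr4, Cd83 and Cd38) also moved with genotype. In dKO 3 were lower and 0 higher in LZ, and 2 lower and 0 higher in DZ (limma, adjusted p under 0.05). Over all genes 12.7% were lower and 18.4% higher in LZ, and 5.23% and 6.63% in DZ. None of the 10 B cell and germinal centre markers was listed at 0, and they moved with genotype. In dKO 5 were lower and 1 higher in LZ, and 3 lower and 1 higher in DZ (limma, adjusted p under 0.05), against the same shares of all genes. Their summed level was 4237 and 4335 FPKM in sKO LZ, 3768 and 3744 in dKO LZ, 3761 and 3915 in sKO DZ and 3360 and 3394 in dKO DZ. Bach2 was at 49.8 and 53.4 FPKM in sKO LZ, 64.5 and 62.7 in dKO LZ, 76.2 and 74.6 in sKO DZ and 96.2 and 94.5 in dKO DZ. It was thus higher in the libraries labelled dKO, 1.23 times the sKO mean in LZ and 1.26 times in DZ. A gene-level value also counts exons that a deletion leaves, and no source used here names the deleted exons. The value therefore neither checks the label nor shows loss of the gene. Prdm1, floxed in every group, was low but moved with genotype, at 0.0577 and 0.0184 FPKM in sKO LZ, 0.980 and 0.967 in dKO LZ, 0.0473 and 0.122 in sKO DZ and 0.258 and 0.434 in dKO DZ. It did not pass the filter on low values and was not tested. Of 6 plasma cell markers, which include Prdm1, 3 were tested. All 3 were higher in both dKO LZ than in both sKO LZ libraries, as were 36.5% of all genes, and 1 passed (Igj). In DZ 1 passed, lower in dKO (Irf4). The sum of the 6 plasma cell markers was 325 and 309 FPKM in sKO LZ, 368 and 368 in dKO LZ, 431 and 449 in sKO DZ and 460 and 472 in dKO DZ, and Tnfrsf17 was listed at 0 throughout. The 8 T cell markers summed to 54.5 to 65.9 FPKM in LZ and 33.1 to 35.7 in DZ, nearly all of it Lck (32.7 to 64.6), which passed between zones in both genotypes; Cd3e and Cd3g were at 0.11 FPKM or less. Erythroid markers summed to 16.9 to 36.0 FPKM. The summed level of 9 myeloid markers was 18.4 and 67.4 FPKM in the sKO LZ libraries, 30.0 and 158 in dKO LZ and 5.46 to 9.39 in DZ, so replicate 2 of each LZ group held the most. The part of these markers in the results below was not tested.

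Among the 10 genes, Rheb and Sesn3 had the most transcript, with means over all libraries of 37.5 and 31.4 FPKM. Tsc2 (10.3), Ddit4 (9.39), Tsc1 (9.39), Akt1s1 (7.84), Sesn1 (7.08) and Mtor (6.53) followed, and Rptor (4.78) and Sesn2 (2.41) were lowest. Ddit4 varied most, with a highest library 3.09 times its lowest. For the other 9 genes that ratio was between 1.17 (Mtor) and 1.46 (Tsc1). The widest range was thus that of an inhibitor, and the narrowest that of the kinase itself. The genes between did not divide this way, since Rheb (1.41) and Rptor (1.28) had wider ranges than the inhibitor Akt1s1 (1.25).

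**Figure D1:**
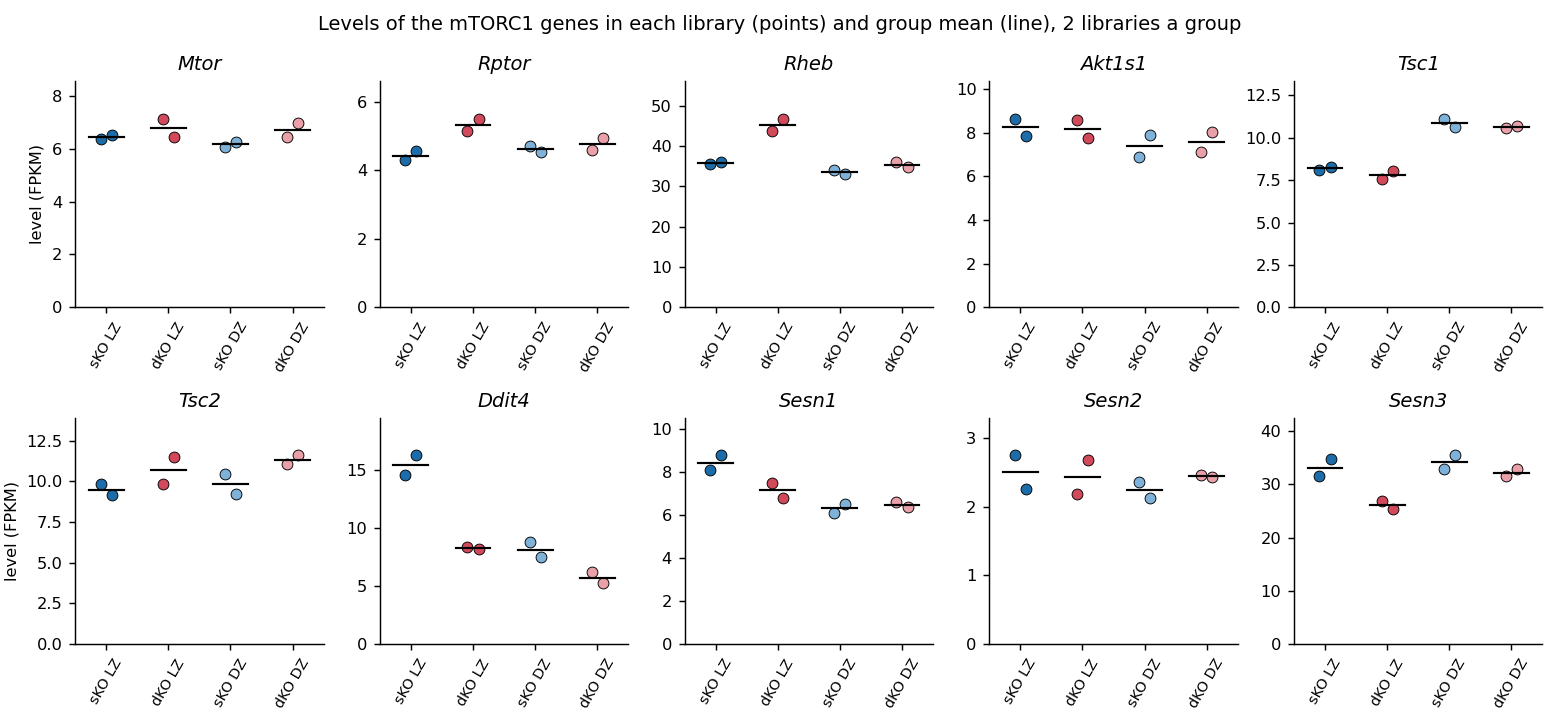
Level of each of the 10 genes (vertical axes, FPKM, from 0) in the 4 groups, with 1 point per library and a line at the group mean. Ddit4 is highest in both sKO LZ libraries (14.6 and 16.2 FPKM), Rheb is highest and Sesn3 lowest in dKO LZ, and Tsc1 is higher in all DZ than in all LZ libraries.

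The promoters of Ddit4, Rheb and Sesn3 are shown because these 3 genes passed the test between dKO and sKO in LZ cells. Each is the 250 bases before the RefSeq transcription start in GRCm38.p6, on the gene's strand, and no position was converted to the mm9 build that the submitters name. Capitals mark a match to a searched motif.
Ddit4, chr10:59951771-59952020, minus strand: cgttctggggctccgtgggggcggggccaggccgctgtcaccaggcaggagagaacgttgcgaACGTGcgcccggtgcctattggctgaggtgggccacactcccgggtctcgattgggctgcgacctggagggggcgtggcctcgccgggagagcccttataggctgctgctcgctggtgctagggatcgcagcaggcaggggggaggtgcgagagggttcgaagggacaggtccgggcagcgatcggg
Rheb, chr5:24842362-24842611, minus strand: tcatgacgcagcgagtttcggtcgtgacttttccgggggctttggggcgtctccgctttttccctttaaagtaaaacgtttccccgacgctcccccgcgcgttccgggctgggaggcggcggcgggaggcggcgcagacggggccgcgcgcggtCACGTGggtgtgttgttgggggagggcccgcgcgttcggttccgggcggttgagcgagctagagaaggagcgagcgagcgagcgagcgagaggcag
Sesn3, chr9:14276051-14276300, plus strand: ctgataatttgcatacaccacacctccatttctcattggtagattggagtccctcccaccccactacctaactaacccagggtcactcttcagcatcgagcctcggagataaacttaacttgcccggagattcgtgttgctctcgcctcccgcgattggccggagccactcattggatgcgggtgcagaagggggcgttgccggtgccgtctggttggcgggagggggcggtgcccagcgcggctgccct
The capitals in Ddit4 are the core ACGTG of hypoxia response elements, and those in Rheb are the E-box CACGTG, which contains that core on both strands. Sesn3 holds none of the motifs searched. All 10 genes had a RefSeq window, 11 in all, since Sesn1 has a pair of starts. The motifs searched, on both strands, were the AP-1 element TGACTCA, the MAF recognition element to which BACH and small MAF proteins are known to bind and which contains the AP-1 element, the FOXO element GTAAACA, the E-box CACGTG, the hypoxia core ACGTG and the amino acid response element TGATGNAA. The AP-1, MAF, FOXO and amino acid elements were in 0 of the 11 windows, against 4.46%, 0.134%, 3.17% and 3.45% of all 32851 windows. The E-box was in 1 window (Rheb; 6.02% of all windows) and the hypoxia core in 3 (Rheb, Ddit4 and Rptor; 16.6%). A match describes letters only, and its absence says only that these letters are not in this window.

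Cells labelled dKO and sKO, which differ in the floxed Bach2 alleles, were compared within each zone. Mtor, the kinase, was at 6.08 to 7.14 FPKM over all 8 libraries. It passed no test, and its difference between dKO and sKO was 0.07 ± 0.069 in LZ (95% interval -0.10 to 0.23) and 0.10 ± 0.069 in DZ (-0.06 to 0.27). Rptor, which encodes raptor, was at 4.29 and 4.56 FPKM in sKO LZ, 5.14 and 5.50 in dKO LZ, 4.72 and 4.53 in sKO DZ and 4.60 and 4.93 in dKO DZ. Both dKO LZ libraries lay above the other 6. The LZ difference of 0.22 ± 0.069 narrowly missed the threshold (adjusted p = 0.0541, limma) and passed it with quantile normalization (0.0455) and without the intensity trend in the variance (0.0358).

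Rheb encodes the GTPase that switches mTORC1 on. It was at 35.5 and 36.2 FPKM in sKO LZ, 43.7 and 46.8 in dKO LZ, 34.0 and 33.2 in sKO DZ and 36.0 and 34.8 in dKO DZ. The dKO LZ libraries stood above all others, and the other 6 lay close together. Rheb rose in dKO LZ cells by 0.33 ± 0.047 (1.26 times the sKO mean; adjusted p = 0.00403, limma), and this call held in all 16 alternatives run. In DZ the difference was 0.07 ± 0.047 (95% interval -0.04 to 0.19; adjusted p = 0.374). Akt1s1 encodes PRAS40, an inhibitory subunit that AKT phosphorylation relieves. It was at 6.90 to 8.64 FPKM, the groups compared overlapped, and its differences between dKO and sKO were -0.01 ± 0.094 in LZ and 0.03 ± 0.094 in DZ. Akt1s1 overlaps the microRNA gene Mir707 in RefSeq, which was listed at 0 to 247 FPKM. Whether the pair shares reads was not tested.

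The TSC genes did not pass the test between genotypes in either zone. Tsc1, which encodes hamartin, differed by -0.06 ± 0.053 in LZ (95% interval -0.19 to 0.07) and -0.03 ± 0.053 in DZ (-0.16 to 0.10). Tsc2, which encodes tuberin, the subunit that acts on RHEB, was at 9.84 and 9.15 FPKM in sKO LZ, 9.85 and 11.5 in dKO LZ and 10.5 and 9.24 in sKO DZ, with a mean of 11.3 ± 0.390 (SD, n = 2) in dKO DZ. Both dKO libraries lay above both sKO libraries in each zone, in LZ by a margin smaller than the spread within dKO. Its differences were 0.15 ± 0.092 in LZ and 0.19 ± 0.092 in DZ (adjusted p = 0.257 and 0.250, limma). Tsc2 overlaps Pkd1 in RefSeq, and no source used here says that strand was kept in the libraries, so the pair may share reads. Pkd1 was at 1.97 to 2.67 FPKM.

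Ddit4 encodes REDD1, the stress-induced inhibitor that acts through the TSC complex. It was at 14.6 and 16.2 FPKM in sKO LZ, 8.40 and 8.21 in dKO LZ, 8.80 and 7.47 in sKO DZ and 6.19 and 5.26 in dKO DZ. Both dKO libraries were below both sKO libraries in each zone, and the dKO LZ level lay within the range of the sKO DZ libraries. Ddit4 fell in dKO LZ cells by 0.82 on the log2 scale (-0.82 ± 0.10), to 0.539 of the sKO mean, with an adjusted p of 0.00271 (limma). Of the 10610 genes tested, 114 had a more negative difference in LZ. The call held in all 16 alternatives run, with adjusted p up to 0.0204.

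In DZ cells Ddit4 also fell, by 0.44 on the log2 scale (-0.44 ± 0.10; 0.704 of the sKO mean; adjusted p = 0.0416, limma). That call was less secure. It was lost in 9 of 16 alternatives, among them those without sKO DZ replicate 1 (0.166), sKO DZ replicate 2 (0.0574), dKO DZ replicate 1 (0.0921) or dKO DZ replicate 2 (0.192), without dKO LZ replicate 1 or 2 (0.0759 and 0.0769), with no filter on low values (0.0795) and with only the DZ libraries fitted (0.0943). The difference stayed between -0.55 and -0.34 in all 16.

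The sestrin genes are a family of 3, and some of their proteins bind leucine and restrain the GATOR2 complex when leucine is scarce. Leucine sensing by the Sesn3 protein is not assumed here. Sesn3, a known target of FOXO factors, was at 31.5 and 34.7 FPKM in sKO LZ, 26.9 and 25.4 in dKO LZ, 32.9 and 35.4 in sKO DZ and 31.5 and 32.9 in dKO DZ. The dKO LZ libraries were the lowest and the other 6 overlapped. Sesn3 fell in dKO LZ cells by 0.33 on the log2 scale (-0.33 ± 0.064; 0.791 of the sKO mean; adjusted p = 0.0117, limma); without dKO LZ replicate 2 the adjusted p was 0.0658. In DZ its difference was -0.08 ± 0.064 (95% interval -0.24 to 0.07).

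Sesn1, a known p53 and FOXO target, was at 8.06 and 8.76 FPKM in sKO LZ, 7.50 and 6.78 in dKO LZ, 6.09 and 6.53 in sKO DZ and 6.60 and 6.35 in dKO DZ. The sKO LZ libraries were highest. Its LZ difference between dKO and sKO, -0.21 ± 0.073, missed the threshold (adjusted p = 0.0724, limma; 0.0366 with upper quartile scaling), and its DZ difference was 0.03 ± 0.073. Sesn2, which is induced by p53 and ATF4, was near the low end throughout, at 2.13 to 2.75 FPKM, with differences of -0.03 ± 0.11 in LZ and 0.09 ± 0.11 in DZ.

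The sestrins added up to 42.3 and 45.7 FPKM in sKO LZ, 36.6 and 34.9 in dKO LZ, 41.4 and 44.1 in sKO DZ and 40.6 and 41.7 in dKO DZ. The dKO LZ libraries thus had the lowest sum. Sesn3 made up 72.9% to 75.9% of it in LZ and 77.7% to 80.3% in DZ libraries. Sesn1 gave 19.1% to 20.5% in LZ and 14.7% to 16.3% in DZ, and Sesn2 gave 4.84% to 7.68% overall. These shares are a description and were not tested.

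**Figure D2:**
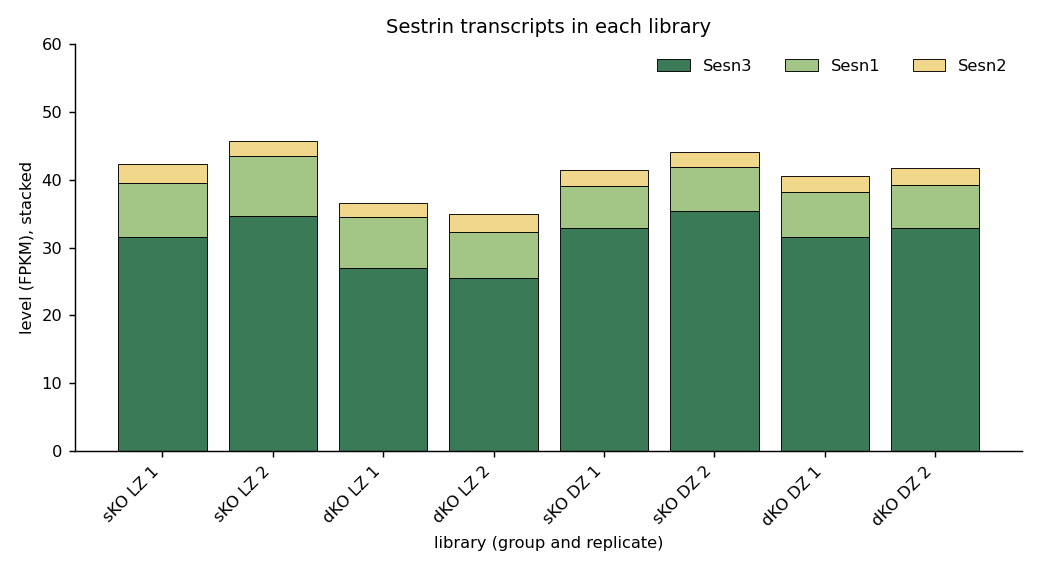
Stacked levels (vertical axis, FPKM) of Sesn3, Sesn1 and Sesn2 in each of the 8 libraries (horizontal axis, group and replicate). The dKO LZ bars are the shortest, at 36.6 and 34.9 FPKM, and Sesn3 makes up most of every bar.

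In count, 3 of the 10 genes passed the test between dKO and sKO in LZ cells, 1 higher (Rheb) and 2 lower (Ddit4 and Sesn3), where 31.1% of all genes tested passed. In DZ cells 1 of 10 passed (Ddit4, lower), where 11.9% of all genes did. Both counts are near the background, so they are no result about the 10 genes as a group. Both libraries of one genotype lay above both of the other for 7 of the 10 genes in LZ (3 higher and 4 lower in dKO), against 65.9% of all genes (36.5% higher and 29.3% lower). In DZ this held for 6 genes (4 higher and 2 lower), against 58.6% of all genes (32.3% and 26.3%). The median difference of the 10 genes was -0.02 in LZ and 0.03 in DZ, against 0.02 and 0.01 over all genes. With upper quartile scaling the share of higher genes among all genes called in LZ was 45.5%, and with quantile normalization 50.3%, against 59.0% without either; Rheb, Ddit4 and Sesn3 kept their direction and call under both.

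**Figure D3:**
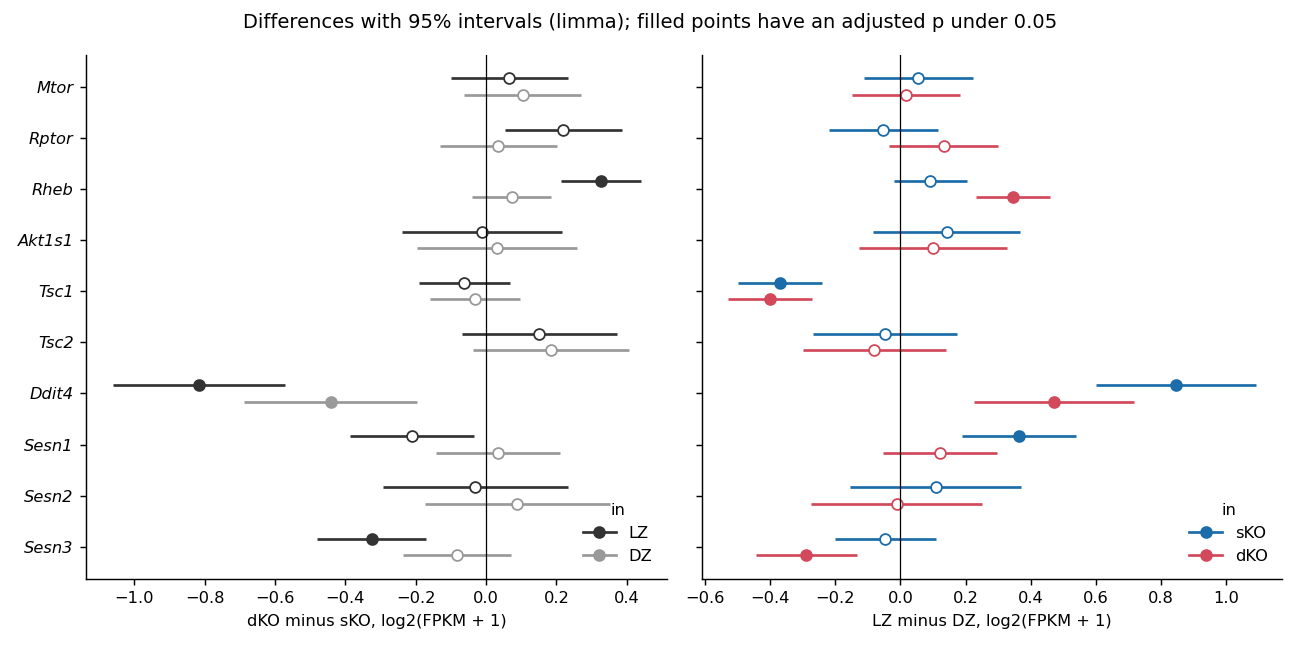
Differences in log2(FPKM + 1) (horizontal axes) between dKO and sKO (left, in LZ and DZ) and between LZ and DZ (right, in sKO and dKO) for each gene, with 95% intervals from limma and filled points where the adjusted p is under 0.05. Ddit4 has the largest differences of the 10 in the left panel (-0.82 and -0.44), and Tsc1 is lower in LZ in both genotypes (-0.37 and -0.40).

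Whether the genotype effect differed between zones was tested as an interaction, and 0 of the 10 genes passed (limma). Over all genes 3 passed (0.0283%), each a microRNA gene, and 1232 of 10610 had an unadjusted p under 0.05. Of the 10 genes, Rheb, Ddit4 and Sesn3 also had an unadjusted p under 0.05. The LZ effect minus the DZ effect was 0.25 ± 0.066 for Rheb (adjusted p = 0.336), -0.37 ± 0.14 for Ddit4 (0.414), -0.24 ± 0.091 for Sesn3 (0.404) and -0.24 ± 0.10 for Sesn1 (0.438). The effects in LZ and DZ were therefore not shown to differ for any of the 10, although Rheb and Sesn3 passed in LZ only.

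The zones differed within each genotype as well. These comparisons use the same libraries as those above, so their values stand beside them and add no independent support. Ddit4 was higher in LZ than in DZ cells in sKO, by 0.85 ± 0.10 (1.89 times the DZ mean; adjusted p = 0.00193, limma), and held in all 17 alternatives. In dKO it was higher by 0.47 ± 0.10 (1.45 times; adjusted p = 0.0142), a call lost without dKO LZ replicate 1 (0.0669), dKO LZ replicate 2 (0.0579) or dKO DZ replicate 2 (0.0774). The groups did not overlap in either genotype.

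Tsc1 ran the other way. It was at 8.13 and 8.28 FPKM in sKO LZ, 7.60 and 8.04 in dKO LZ, 11.1 and 10.7 in sKO DZ and 10.6 and 10.7 in dKO DZ. All 4 LZ libraries were below all 4 DZ libraries. Tsc1 fell in LZ relative to DZ by 0.37 on the log2 scale in sKO (-0.37 ± 0.053; adjusted p = 0.00386, limma) and by 0.40 in dKO (-0.40 ± 0.053; adjusted p = 0.00239, limma), and both calls held in all 17 alternatives. Tsc2 did not pass between zones (-0.05 ± 0.092 in sKO and -0.08 ± 0.092 in dKO). The ratio of Tsc1 to Tsc2 transcript was 0.826 and 0.904 in sKO LZ, 0.772 and 0.698 in dKO LZ, 1.06 and 1.15 in sKO DZ and 0.957 and 0.923 in dKO DZ. It was below 1 in every LZ library and in both dKO DZ libraries, and above 1 in both sKO DZ libraries.

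Rheb was higher in LZ than in DZ in dKO (0.35 ± 0.047; adjusted p = 0.00250, limma; held in all 17 alternatives), and its difference in sKO was 0.09 ± 0.047 (95% interval -0.02 to 0.20). Sesn3 was lower in LZ than in DZ in dKO (-0.29 ± 0.064; adjusted p = 0.0155; 0.0873 without dKO LZ replicate 2, 0.0547 and 0.0890 without dKO DZ replicates 1 and 2), with -0.05 ± 0.064 in sKO. Sesn1 was higher in LZ than in DZ in sKO (0.36 ± 0.073; adjusted p = 0.0126; 0.0614 without sKO LZ replicate 2, 0.0617 without sKO DZ replicate 1 and 0.0503 with only the sKO libraries fitted), with 0.12 ± 0.073 in dKO. Mtor, Rptor, Akt1s1, Tsc2 and Sesn2 passed in neither genotype, with differences from -0.08 to 0.14.

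Between zones, 3 of the 10 genes passed in sKO (Ddit4 and Sesn1 higher in LZ, Tsc1 lower) where 31.2% of all genes passed, and 4 in dKO (Ddit4 and Rheb higher, Tsc1 and Sesn3 lower) where 34.1% did. The dKO count was 2 without dKO LZ replicate 2 or without dKO DZ replicate 2. These shares too are near the background. The zones did not overlap for 5 genes in sKO (4 higher and 1 lower in LZ), against 65.8% of all genes (32.7% and 33.1%). In dKO they did not overlap for 6 genes (4 higher and 2 lower), against 73.2% (37.7% and 35.5%). From highest to lowest mean, Ddit4 ran from sKO LZ through dKO LZ and sKO DZ to dKO DZ, with both dKO LZ libraries between the sKO DZ libraries. It was dKO LZ, sKO LZ, dKO DZ, sKO DZ for Rheb, with the last 3 close, and sKO DZ, dKO DZ, sKO LZ, dKO LZ for Tsc1, with the genotypes of a zone not differing beyond the test.

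The genes with the pattern most like each of the 5 called members were looked for among 7169 genes with a mean of at least 5 FPKM, by Pearson's r over the 8 libraries on the log2 scale. The 8 libraries share 4 groups, so r mainly reflects the group means, and it is given as a description. For Ddit4 they were Snx29, Filip1l and Zufsp (r = 0.991, 0.990 and 0.988), and Snx29 had group means of 16.9 and 11.9 FPKM in LZ and 11.6 and 9.18 in DZ (sKO first). For Rheb they were Atp6ap2, an accessory gene of the proton pump of lysosomes (r = 0.990), the nucleotide pyrophosphatase gene Dctpp1 (0.979) and Mtx2 (0.977). For Tsc1 they were the glycan enzyme gene Man2a1 (0.993), Ccrl1 (0.992) and Slc41a2 (0.991). For Sesn1 they were Zfp317 (0.970), the deadenylase subunit gene Cnot6l (0.969) and Plcb2 (0.962), and for Sesn3 Atf7ip (0.976), Ptms (0.975) and Tmem106b (0.971).

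The wider pathway was read from 8 lists with 88 genes in the table, of which 75 passed the filter. In dKO against sKO LZ cells 12 of the 75 rose and 7 fell, where 18.4% and 12.7% of all genes did. In DZ 3 rose and 3 fell, where 6.63% and 5.23% did. The median difference was -0.02 in LZ and below 0.01 in size in DZ. In LZ cells the count of higher genes was 3 when either dKO LZ library was left out and 5 when sKO LZ replicate 2 was, 4 with only the LZ libraries fitted and 7 with no filter on low values, and the count of lower genes was 4 when dKO LZ replicate 1 was left out and 12 with upper quartile scaling. In DZ the higher count was 0 without any of the dKO or sKO DZ libraries or either dKO LZ library, and the lower count was 0 without dKO DZ replicate 1 or 2 and 1 without sKO DZ replicate 2. Counts of single lists rest on few genes, move with these and are no result about a list.

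Of 6 tested genes of mTORC1 and mTORC2 partners, 1 rose in dKO LZ cells, Telo2, a chaperone of such kinases (0.37 ± 0.10, adjusted p = 0.0352, limma, lost in 9 alternatives). Of all genes 18.4% rose and 12.7% fell in LZ. In DZ 0 of the 6 passed, where 11.9% of all genes did. Mlst8, a subunit of both complexes, was at 6.99 to 8.47 FPKM, and Rictor, the scaffold of mTORC2, at 8.21 to 10.1, and neither passed any comparison. Deptor, an inhibitory subunit, was at 0.0582 FPKM or less and listed at 0 in 4 libraries. Of the relatives of the TSC genes and Rheb, 2 were tested. Rhebl1, a Rheb paralogue, rose in dKO LZ cells from 2.82 and 2.34 to 3.85 and 4.91 FPKM (0.58 ± 0.16, adjusted p = 0.0320; lost in 5 alternatives), and Rheb was 9.54 to 17.3 times as abundant. Tbc1d7, the last subunit of the TSC complex, was at 4.79 to 7.28 FPKM and passed no comparison.

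Among the lysosomal amino acid sensing genes, 1 rose and 2 fell of 11 RAG and Ragulator genes in LZ cells of dKO genotype. Of all genes 18.4% rose and 12.7% fell there. Rraga, the major RAG A GTPase gene, was at 121 and 126 FPKM in sKO LZ, 99.0 and 98.8 in dKO LZ, 81.2 and 87.3 in sKO DZ and 68.5 and 70.8 in dKO DZ. Its difference in LZ was -0.32 ± 0.047 (lower in dKO, adjusted p = 0.00460, limma; held in all 16 alternatives). In DZ it was -0.27 ± 0.047 (lower, adjusted p = 0.0183; lost in 4). Slc38a9, a lysosomal arginine sensor, fell in LZ from 5.98 and 6.52 to 4.50 and 4.58 FPKM (-0.39 ± 0.063, adjusted p = 0.00638; held in all 16). Hbxip, the Ragulator gene also called Lamtor5, rose by 0.20 ± 0.050 (adjusted p = 0.0268; lost in 7 alternatives, among them both other scalings). Of 11 GATOR and KICSTOR genes 2 rose in LZ and 0 fell, against the same shares of all genes. The 2 that rose were Seh1l, a GATOR2 and nuclear pore gene (0.30 ± 0.053, adjusted p = 0.00782, limma, lost without dKO LZ replicate 1), and Mios, another GATOR2 subunit (0.21 ± 0.061, adjusted p = 0.0424, lost in 12).

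Of 11 substrates and effectors of mTORC1, the LZ comparison had 2 higher and 2 lower in dKO, where 18.4% of all genes were higher and 12.7% lower. Eif4e, the cap-binding factor that mTORC1 frees, was at 35.5 and 37.5 FPKM in sKO LZ and 50.1 and 47.9 in dKO LZ (0.41 ± 0.050, adjusted p = 0.00242, limma; held in all 16 alternatives). In DZ it also rose (0.21 ± 0.050, adjusted p = 0.0443; lost in 12). Eif4ebp1, its repressor, rose in LZ by 0.38 ± 0.11 (adjusted p = 0.0376; lost in 6). Pdcd4, a translation inhibitor degraded after phosphorylation by the mTORC1 effector S6K, was at 18.8 and 20.2 FPKM in sKO LZ and 7.18 and 7.08 in dKO LZ, with DZ libraries at 4.46 to 8.24. Both sKO LZ libraries stood far above the other 6. Pdcd4 fell in LZ by 1.33 on the log2 scale (-1.33 ± 0.097, adjusted p = 0.000887; held in all 16), and in DZ by 0.56 on the log2 scale (-0.56 ± 0.097, adjusted p = 0.0187; lost in 4). Rps6 had a small difference in LZ (-0.13 ± 0.040, adjusted p = 0.0454; lost in 11).

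Upstream, the LZ comparison had 3 of 17 PI3K and AKT genes higher and 2 lower in dKO, where 18.4% of all genes were higher and 12.7% lower. The PI3K subunit gene Pik3cg rose in LZ (0.33 ± 0.080, adjusted p = 0.0233, limma; lost in 5 alternatives) and in DZ (0.34 ± 0.080, adjusted p = 0.0448; lost in 10). The regulatory subunit gene Pik3r1 fell in LZ (-0.27 ± 0.055, adjusted p = 0.0142; 0.0789 at most, without sKO LZ replicate 2 or dKO LZ replicate 1).

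Of 9 genes listed under LKB1 and AMPK, a kinase that senses low energy, Camkk2 rose (0.30 ± 0.069) and Strada fell (-0.16 ± 0.045) in dKO LZ cells (adjusted p = 0.0193 and 0.0361, limma, lost in 3 and 8 alternatives). Of all genes 18.4% rose and 12.7% fell there. In DZ 0 of the 9 passed, where 11.9% of all genes did. Of 8 transcription factors known to act on sestrin genes or Ddit4, 1 rose in LZ, Trp53, the p53 gene (0.31 ± 0.071, adjusted p = 0.0185, limma, lost in 3). In DZ 0 passed, and the shares of all genes are those just given. Foxo1 was at 34.4 and 29.9 FPKM in sKO LZ, 29.1 and 27.3 in dKO LZ, 47.6 and 44.4 in sKO DZ and 47.4 and 44.3 in dKO DZ. The genotypes did not pass (-0.18 in LZ, adjusted p = 0.131; 0.00 in DZ), and the zones did. Foxo3 was at 1.26 to 1.56 FPKM. Atf4 was at 117 to 145 FPKM, with an LZ difference of 0.19 (adjusted p = 0.0770, limma).

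**Figure D4:**
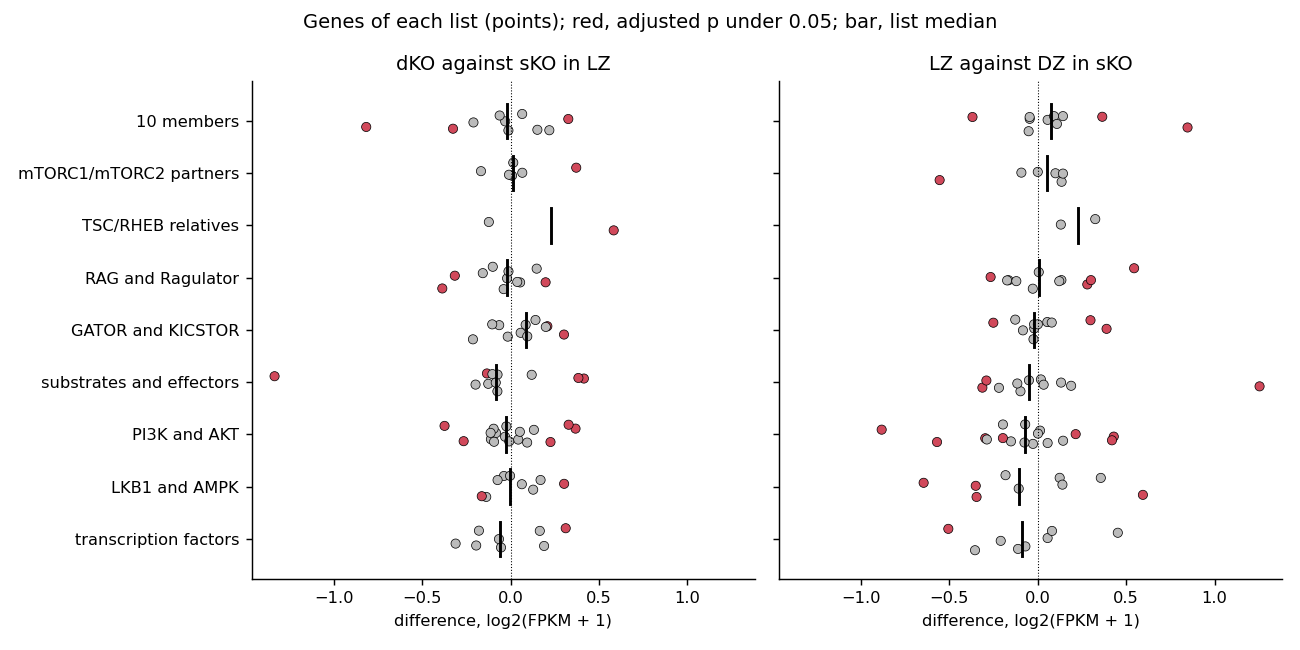
Difference in log2(FPKM + 1) (horizontal axes) of each tested gene of the 10 members and 8 pathway lists (rows), between dKO and sKO in LZ (left) and between LZ and DZ in sKO (right), with red points for an adjusted p under 0.05 and bars at the list medians. The farthest points are Pdcd4 (-1.33 on the left, 1.25 on the right), Ddit4 (-0.82 and 0.85) and, on the right, Akt1 (-0.88).

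Between zones, 10 of the 75 genes were higher and 13 lower in LZ in sKO (15.2% and 16.1% of all genes), and 13 and 13 in dKO (18% and 16.1%). The largest zone difference among PI3K and AKT genes was that of Akt1, at 73.7 to 83.6 FPKM in LZ and 140 to 148 in DZ libraries (-0.88 ± 0.055 in sKO and -0.80 ± 0.055 in dKO, adjusted p = 0.000225 and 0.000246, limma). Pik3ap1, a PI3K adaptor gene, was higher in LZ (0.42 and 0.43). Foxo1 was lower in LZ by 0.51 ± 0.078 in sKO and 0.68 ± 0.078 in dKO on the log2 scale (differences of -0.51 and -0.68, adjusted p = 0.00479 and 0.00137). Each of these calls held in all 17 alternatives, as did those of the mTORC2 subunit gene Prr5 (-0.56 and -0.56), Camkk2 (-0.65 and -0.39) and Rraga (0.54 and 0.50) in both genotypes.

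Further zone calls in sKO that held in all 17 alternatives were higher Pdcd4 (1.25) and lower Eif4ebp2 (-0.31), Prkag1 (-0.35) and Stk11, the LKB1 gene (-0.35). In dKO, higher Eif4e (0.33) held in all 17 and higher Inpp4b (0.67) in all 16 that were run for it. The zone calls of Fnip1, Rragb, Mios, Prkab2 and Flcn in both genotypes, of Kptn, Wdr24 and Maf1 in sKO and of Rhebl1, Seh1l, Pdcd4, Eif4ebp2, Maf1, Stk11, Foxo4 and Ddit3 in dKO were each lost in 1 or more alternatives, with adjusted p up to 0.177. In the alternatives that left out no single library, the lower count in sKO was 8 to 14 (13 in the main fit). It also fell without sKO LZ replicate 2 or sKO DZ replicate 2. The higher count in sKO was 5 to 11 in those alternatives (10 in the main fit), and this higher count also fell without either sKO DZ replicate. In dKO it was 6 without dKO LZ replicate 1, dKO LZ replicate 2 or dKO DZ replicate 1 and 7 without dKO DZ replicate 2 (13 with all), and the lower count was 8 and 7 without dKO DZ replicates 1 and 2.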

How the data were processed

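The data were 1 table of values, taken to be FPKM, that the authors deposited, with 23234 gene symbols and 8 libraries, and 0 unmatched columns. Per the submitters' processing notes the tools included TopHat2 2.0.8 and Cufflinks 2.1.1 and the build was mm9; roles, options and annotation are not given in the sources used here. The last row holds library codes and was dropped. Counts were not analysed here, and depth in reads is unknown.

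The test used log2(FPKM + 1) for the 10610 genes that reached 1 FPKM in 2 or more libraries. limma 3.58.1 in R 4.3.3 fitted group means over all 8 libraries with an intensity trend (4 residual and 2.46 prior degrees of freedom), 2-sided, with Benjamini-Hochberg adjustment over all genes. Ranges and intervals cover the libraries only. Alternatives were a replicate block, another pseudocount, filters, scalings, variance prior, fits restricted to the compared libraries, and fits without each library in turn. On simulated data for 10610 genes (dKO against sKO in LZ), 24%, 72%, 98% and 98% of genes changed by 0.3, 0.5, 1 and 2 were recovered, with 2 false calls. In the simulation 50 genes were changed at each size, whereas 3299 genes were called in that comparison of the data. With fewer genes changed the adjustment asks for a smaller p, so these shares do not give the recovery in the data.

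All 10 members were named. Of each pathway list, up to 4 genes past the threshold with the smallest p in a comparison were named, with Foxo1, Foxo3, Trp53, Atf4, Mlst8, Deptor, Rictor, Cd86 and Cxcr4 in any case, and for each called member the 3 genes of highest Pearson r. Tbc1d7, Bach2, Prdm1, Pkd1 and the single markers of other cells were added after their values were seen. Some genes that met this rule are not reported here. The members and lists were chosen with earlier results of these data known.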

Additional observations from a re-analysis of the deposited data

How the results depend on the processing

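Rheb and Ddit4 in LZ between genotypes, Ddit4 in sKO, Rheb in dKO and Tsc1 in both genotypes between zones kept their direction and call in every alternative run, and no call of a gene named here reversed. The 3 members called in LZ between genotypes were 2 to 3 with 1 library left out and 3 to 4 in the other alternatives. The 1 member called in DZ (Ddit4) became 0 with no filter on low values, with only the libraries compared and with the replicate block, and was 0 to 1 with 1 library left out. The members called between zones were 2 to 3 in sKO and 2 to 4 in dKO with 1 library left out. With only the libraries compared, 2177 genes were called in LZ and 649 in DZ between genotypes and 1678 between zones in sKO; fewer samples then set the spread. With 1 library left out, the genes called were 1703 to 3158 in LZ and 112 to 1346 in DZ between genotypes, 2006 to 3032 between zones in sKO, 2007 to 3864 in dKO and 2 to 6 for the zone difference of the genotype effect. That last count was 5 with no filter and 5 with the replicate block by genotype. Where 1 library was left out, the lone library of its group was assumed to vary like the other groups.

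The replicate numbers are not stated to mark shared pools, and deviations of same-numbered libraries from their group means correlated between -0.108 and 0.124 across genes, so the numbers were not taken as pairs. With the replicate block 2994 and 881 genes were called between genotypes in LZ and DZ, and Ddit4 in DZ had an adjusted p of 0.0614 (limma). A member that missed the threshold may still differ. The simulation does not tell how often such changes were missed, since far fewer genes were changed in it than were called in the data.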
